A study of Arabidopsis thaliana with 24 samples.

Results

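Polysomal RNA was set against total RNA in developing seeds of Arabidopsis thaliana at 12 days after pollination (DAP). The arrays were chosen by their labels alone, as the 3 polysomal and the 3 total RNA arrays of that stage, which are 6 of the 24 arrays in the series. All seeds came from untreated, non-mutant plants of the Col-0 ecotype, and each replicate was a bulk of plants from a randomized block planting. The other 18 arrays hold the same fractions at 15, 18 and 20 DAP, with 3 arrays in each group. Neither the isolation of polysomes nor the array design is given in the sources used here.

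A polysome is a messenger RNA that carries several ribosomes at once. A transcript richer in the polysomal than in the total fraction is commonly read as more heavily loaded with ribosomes than the average transcript. Ribosome load itself was not measured here. Cytosolic ribosomes translate the transcripts of nuclear genes. Mitochondria and plastids have genomes and ribosomes of their own and translate their transcripts inside the organelle. At mid-development the embryo fills with storage protein and oil, which are built by large, strongly expressed gene families. Differences below are log2 values, polysomal minus total RNA, ± SE from limma with n = 3 arrays in each group. They are relative values within each array and do not measure what share of a transcript sat on polysomes. In whole seeds, fewer cells of a type and less RNA per cell cannot be told apart.

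The samples held seed transcripts in both fractions. CRA1, a 12S globulin of the protein store, stood at 12.51, 12.41 and 12.45 in polysomal RNA and at 12.47, 12.30 and 12.12 in total RNA. OLEO1, the main oil body coat protein, stood at 12.29, 12.28 and 12.40 in polysomal RNA and at 11.84, 11.54 and 11.56 in total RNA. Over 11 seed genes chosen as markers, the array medians were 10.90 to 11.09 in polysomal RNA and 10.75 to 11.08 in total RNA. Over 6 genes chosen as markers of the silique valve and pericarp, which are fruit tissues, they were 4.48 to 5.09 in polysomal RNA and 3.54 to 4.86 in total RNA. Over 10 endosperm markers they were 3.96 to 4.87 in polysomal RNA and 4.10 to 4.38 in total RNA. All 3 ranges overlapped between the fractions. Of the 11 seed markers 2 were lower (18.2%, against 4.75% of all loci), SESA4 and SESA2, and on quantile normalized values 0 were. In the test 0 of the 6 silique and 0 of the 10 endosperm markers passed, against 5.65% of all loci, and lists this short can give 0 at that share. Whether the silique genes mark fruit tissue alone was not tested.

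Of 27827 loci, 1573 (5.65%) differed between polysomal and total RNA at an adjusted p under 0.05. Lower calls outnumbered higher ones, with 1321 loci (4.75%) lower and 252 (0.906%) higher in polysomal RNA. This balance did not hold with a spread shared by all 24 arrays, which gave 4287 lower and 4463 higher calls. That fit pools noisy 12 DAP arrays with steadier later ones. The median replicate SD was 0.567 in polysomal and 0.532 in total RNA at 12 DAP, against 0.175 to 0.301 in the later groups. For this reason the 6 arrays were fitted alone. Before adjustment 5788 loci had a p under 0.05. The smallest called difference was 1.62, and 1074 of the lower and 94 of the higher loci differed by at least 4-fold. The 3 polysomal values lay apart from the 3 total values at 1559 of the called loci (5.6% of all). After quantile normalization of the 6 arrays 1261 loci (4.53%) were called, of which 974 (3.5%) were lower and 287 (1.03%) higher. A total of 1129 of the 1573 loci (71.8%, or 89.5% of the quantile calls) were called there in the same direction. The counts depended on single arrays, with 907 loci left without total replicate 2, 947 without total replicate 3 and 982 without polysomal replicate 1. The higher calls numbered between 65, without total replicate 2, and 150, without polysomal replicate 3, when any one array was left out.

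The 6 arrays were noisy and differed in the breadth of their values. Replicates correlated across loci at 0.739 to 0.769 in polysomal RNA and at 0.819 to 0.851 in total RNA, against 0.955 to 0.990 at the later stages, where loci are not independent replicates. The SD over loci was 1.39 to 1.49 on polysomal and 1.64 to 1.71 on total arrays, and 2.13 to 2.43 on the later arrays. Along with this narrower range, the median difference was 0.466 in the dimmest of 5 equal bins of loci and -0.173 in the brightest. The share of loci called lower was 0.126% in the dimmest and 13.0% in the brightest bin. On quantile normalized values the same medians were 0.192 and 0.182. The part of the array range in the lower calls was not tested beyond the calls on quantile normalized values given beside each group.

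**Figure D1:**
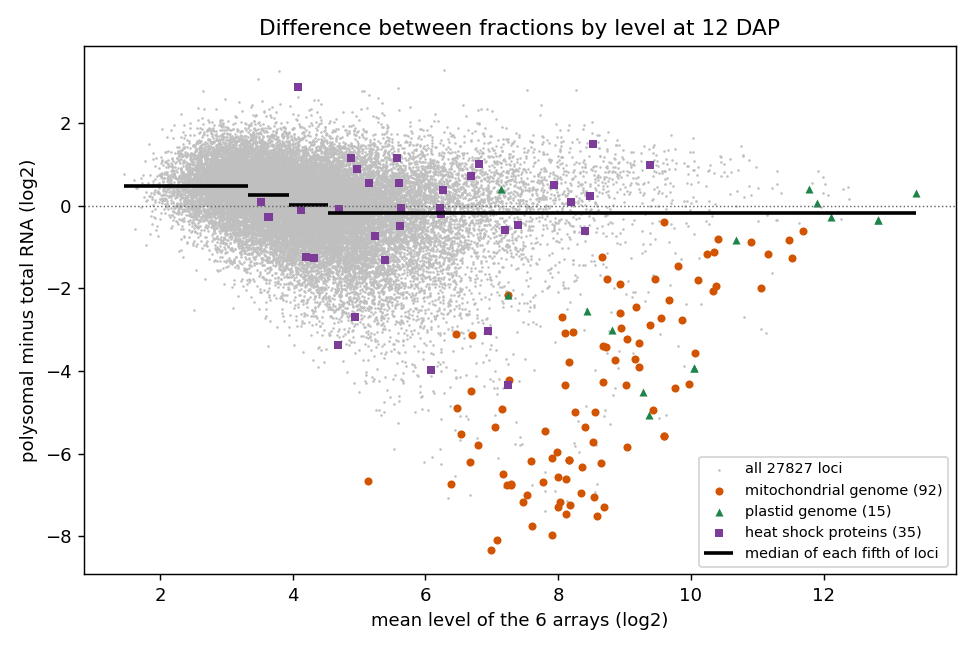
Difference between polysomal and total RNA (log2, vertical axis) against the mean level of the 6 arrays (log2, horizontal axis) for every locus in grey, with 92 mitochondrial (orange circles), 15 plastid (green triangles) and 35 heat shock loci (purple squares). Black lines are the medians of 5 bins of loci by level, from 0.466 in the dimmest to -0.173 in the brightest, and the mitochondrial loci lie between -0.40 and -8.34.

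The transcripts of the mitochondrial genome were the most depleted group. Of the 92 loci on the array 80 were lower in polysomal RNA (87%, against 4.75% of all loci) and 0 higher. Their median difference was -4.45, beside 0.114 for all loci. The median level of the 92 was 6.13, 6.10 and 6.10 on the polysomal arrays and 10.86 or more on each of the total arrays. The 3 polysomal values lay apart from the 3 total values at 90 of the 92, against 25.8% of all loci. On quantile normalized values 73 were lower and the median was -4.11. A total of 37 of the 92 shared every value with another locus, so they are not independent measurements.

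ATMG00450 stood at 2.84, 2.04 and 3.60 in polysomal RNA and at 11.06, 11.09 and 11.33 in total RNA, a difference of -8.34 ± 0.51 (adjusted p = 9.69e-08). ATMG00820 stood at 3.71, 3.68 and 3.83 in polysomal RNA and at 11.29, 11.72 and 11.43 in total RNA (-7.74 ± 0.46). In total RNA these transcripts were among bright signals, and in polysomal RNA they were below the array median of 4.21 to 4.22. ATMG00880 (-8.10), ATMG00860 (-7.96), ATMG01250 (-7.30), ATMG00840 (-7.30), ATMG00740 (-7.23) and ATMG00320 (-7.17) were the other mitochondrial loci picked for the size of the fall. Polysomal values this low give the size of these differences little precision, and their order is not read. The gene table used here does not pair these IDs with gene names. A pair of chromosome 2 pseudogenes, AT2G07683 (-7.39) and AT2G07682 (-7.15), were also among the 10 lowest.

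The mitochondrial loci were not alike. The quartiles of their differences were -6.36 and -2.72. Of the 92, 12 did not pass the test. ATMG01000 stood at 8.82, 9.50 and 9.87 in polysomal RNA and at 9.95, 9.64 and 9.79 in total RNA, so its groups overlapped (-0.40 ± 0.48, adjusted p = 0.681). ATMG01120 (-0.62), ATMG00480 (-0.81), ATMG01200 (-0.83) and ATMG00560 (-0.89) also had small differences, whose sign turned on quantile normalized values for 4 of these 5, the exception being ATMG01200 (-0.04). These loci are named after their values were seen. Without any one of the 6 arrays between 72 and 78 of the 92 were called lower.

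**Figure D2:**
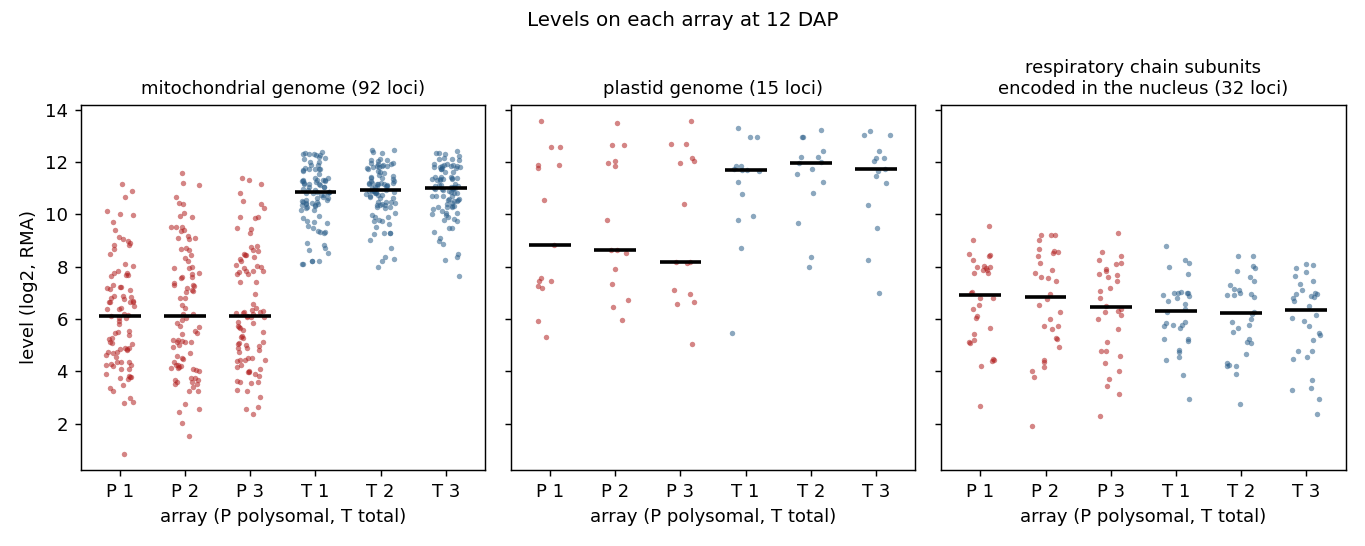
Levels (log2, vertical axis) on each of the 3 polysomal (P, red) and 3 total RNA arrays (T, blue) for the 92 mitochondrial loci, the 15 plastid loci and 32 nuclear genes for respiratory chain subunits. Points are loci and black lines are array medians, which for the mitochondrial loci are 6.10 to 6.13 in polysomal and 10.86 or more in total RNA.

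The plastid genome split into a depleted and an even set. Of 15 loci 7 were lower (46.7%, against 4.75% of all loci) and 0 higher, with the same count on quantile normalized values. The median turned from -0.838 to -0.00145 there. ATCG00250 stood at 7.27, 6.73 and 7.10 in polysomal RNA and at 11.24, 11.72 and 11.65 in total RNA (-4.51 ± 0.47, adjusted p = 1.02e-05). ATCG00990, which shares its values with ATCG01140, stood at 7.45, 8.63 and 8.17 in polysomal RNA and at 11.70, 12.18 and 12.14 in total RNA (-3.92 ± 0.49). Both were far lower on every polysomal array than on any total array. ATCG00240 had the lowest ratio, at -5.06 ± 0.64, with 7.57, 7.90 and 5.03 in polysomal RNA and 11.67, 11.95 and 12.06 in total RNA. The other 8 loci lay between -0.84 and 0.40 and did not pass. Among them ATCG00020 stood at 13.56, 13.49 and 13.56 in polysomal RNA and at 13.31, 13.23 and 13.19 in total RNA (0.30 ± 0.46). In 12 of the 15 every value was shared with another locus.

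Few nuclear genes for the same organelle machines passed. Of 32 nuclear genes for subunits of the respiratory chain 1 was higher (3.12%, against 0.906% of all loci) and 0 lower (against 4.75%), with a median of 0.317 (0.615 on quantile normalized values). MPPBETA, which is both a subunit of a respiratory complex and part of the peptidase that trims imported proteins, stood at 9.02, 9.23 and 8.57 in polysomal RNA and at 6.99, 7.47 and 6.89 in total RNA (1.83 ± 0.47, adjusted p = 0.0311). Its groups lay apart, but the call ended without any one of 5 of the 6 arrays (1.68 to 2.0). AT4G32470, next by p in this list, differed by 1.69 ± 0.53 (adjusted p = 0.0764). Of 51 nuclear photosynthesis genes 1 was higher (1.96%) and 2 lower (3.92%), or 6 and 2 on quantile normalized values, with a median of 0.39. Of 30 nuclear genes for ribosomal proteins of organelles 0 passed as deposited, and RPL9, of the large subunit, differed by 1.61 ± 0.52 (adjusted p = 0.0832). On quantile normalized values 3 of them were higher.

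Within the photosynthesis list, 2 gene families had a member that was called lower and a paralog that did not pass, and the difference between paralogs was not tested. RBCS1A, a small subunit of the carbon-fixing enzyme Rubisco, stood at 11.47, 11.74 and 11.48 in polysomal RNA and at 10.99, 11.23 and 10.89 in total RNA (0.53 ± 0.46, adjusted p = 0.549). Its paralog RBCS2B stood at 3.38, 1.63 and 2.41 in polysomal RNA and at 5.05, 5.79 and 5.42 in total RNA (-2.94 ± 0.53, adjusted p = 0.00265). RBCS2B was thus lower on all 3 polysomal arrays, and RBCS1A was above on all 3 without passing. The antenna protein gene CAB3 stood at 4.86, 4.84 and 6.33 in polysomal RNA and at 8.21, 7.98 and 7.33 in total RNA (-2.49 ± 0.53, adjusted p = 0.00945), a call lost without polysomal replicate 1 (-2.25). Its close paralog CAB1 (LHCB1.3) stood at 10.98, 11.05 and 10.95 in polysomal RNA and at 9.92, 10.26 and 9.79 in total RNA (1.0 ± 0.46, adjusted p = 0.225, and 0.0392 on quantile normalized values). Members of these families are near-identical in sequence, and whether their probes share signal is not known here. NPQ4, a sensor of excess light, was higher (1.7 ± 0.47, adjusted p = 0.0425), and without any one array this call ended (1.54 to 1.91).

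A set of small heat shock genes was strongly lower in polysomal RNA. Of 35 heat shock genes 5 were lower and 1 higher, against 4.75% and 0.906% of all loci, while the list's median stayed near 0 (-0.0843, and 0.0105 on quantile normalized values). HSP23.6-MITO, a small chaperone of mitochondria that holds unfolding proteins, stood at 3.37, 4.66 and 4.23 in polysomal RNA and at 7.87, 7.63 and 8.72 in total RNA (-3.99 ± 0.52, 15.8-fold, adjusted p = 0.000118). HSP17.6A, a cytosolic small heat shock protein, stood at 6.09, 6.18 and 2.94 in polysomal RNA and at 9.63, 9.75 and 8.87 in total RNA (-4.34 ± 0.71, adjusted p = 0.00112). Polysomal replicate 3 was the lowest of the 6 for that gene, and without it the difference was -3.28 and still called. HSP17.6II, another cytosolic member, differed by -3.37 ± 0.59, with 3.31, 1.66 and 4.01 in polysomal RNA and 5.72, 6.46 and 6.91 in total RNA.

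AT2G29500 stood at 5.74, 4.69 and 5.85 in polysomal RNA and at 8.33, 8.46 and 8.58 in total RNA (-3.03 ± 0.49, adjusted p = 0.0011). AT1G53540 differed by -2.70 ± 0.53 (adjusted p = 0.00511). All 5 lower calls remained on quantile normalized values and without each of the 6 arrays in turn. AT5G37670 went the other way, at 4.36, 7.32 and 4.86 in polysomal RNA and 2.95, 2.90 and 2.10 in total RNA (2.86 ± 0.65, adjusted p = 0.0145), and its call ended without polysomal replicate 2 (1.96) or total replicate 3 (2.59). HSP70 and HSP60, large chaperones of the cytosol and of mitochondria, did not pass (1.48 ± 0.50 and 1.14 ± 0.47). The seed heat shock factor HSFA9 did not pass either (-1.15 ± 0.55, adjusted p = 0.243).

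Of 36 genes that build fatty acids and triacylglycerol 4 were higher in polysomal RNA (11.1%, against 0.906% of all loci) and 0 lower. A difference above 0 was found for 30 of the 36, against 15422 of all 27827 loci, and the median was 0.795, against 0.114. On quantile normalized values 6 were higher and the median was 1.26. AT1G24360 stood at 9.16, 8.95 and 8.69 in polysomal RNA and at 6.17, 5.91 and 6.33 in total RNA (2.80 ± 0.46, 6.96-fold, adjusted p = 0.00133), and remained called without each array in turn. CAC2, the biotin carboxylase of the enzyme that commits carbon to fatty acids, stood at 9.20, 8.99 and 8.66 in polysomal RNA and at 7.22, 6.79 and 6.91 in total RNA (1.98 ± 0.47, adjusted p = 0.0177). Each lay clearly higher on all 3 polysomal arrays. LTA2, the acyltransferase of the plastid pyruvate dehydrogenase that supplies acetyl groups, differed by 2.03 ± 0.49, and AT5G10160 by 1.91 ± 0.48. The count rests on single arrays, since 1 of the 4 passed without polysomal replicate 1, and between 2 and 3 without any other array. BCCP2, a biotin carrier of the same first enzyme, and KASI, a condensing enzyme of chain growth, were above 0 but did not pass (1.54 ± 0.47 and 1.14 ± 0.46).

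Few storage protein and oil body genes passed the test. All 7 oil body genes lay above 0, from 0.11 for the caleosin ATS1 (AT4G26740) to 1.03 for AT3G01570, and 0 of them passed. Their median was 0.827, and 1.51 on quantile normalized values, where AT3G01570 passed (adjusted p = 0.0417). OLEO1 differed by 0.68 ± 0.46 and OLEO3, another oil body coat protein, by 1.0 ± 0.47. Of 13 storage protein genes 2 were lower (15.4%, against 4.75% of all loci) and 0 higher. Their median was 0.0265, whose sign turned under cyclic loess (-0.18). CRA1 did not pass (0.16 ± 0.46, adjusted p = 0.881, and -0.19 under cyclic loess), nor did the other 12S globulins CRU2 (0.51) and CRU3 (0.45).

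The 2S albumins, small sulfur-rich storage proteins, were uneven as deposited. SESA4 stood at 8.06, 9.13 and 9.69 in polysomal RNA and at 11.47, 11.36 and 11.21 in total RNA (-2.39 ± 0.51, adjusted p = 0.0101). SESA2 stood at 7.41, 8.12 and 8.50 in polysomal RNA and at 10.47, 10.24 and 9.95 in total RNA (-2.21 ± 0.49, adjusted p = 0.0119). Both were lower on all 3 polysomal arrays, and polysomal replicate 1 was the lowest. Both calls ended without polysomal replicate 1 (-1.93 for SESA4 and -1.91 for SESA2) and on quantile normalized values (-1.64, adjusted p = 0.0937, and -1.66, adjusted p = 0.0624). SESA3 (-0.41), SESA1 (-0.34) and SESA5 (0.72) did not pass. The folding and translocation machinery of the endoplasmic reticulum, through which storage proteins pass, had 0 of 25 genes called, with CNX1, a folding chaperone, at -0.84 ± 0.46 and AT1G78720 at 0.85 ± 0.51.

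**Figure D3:**
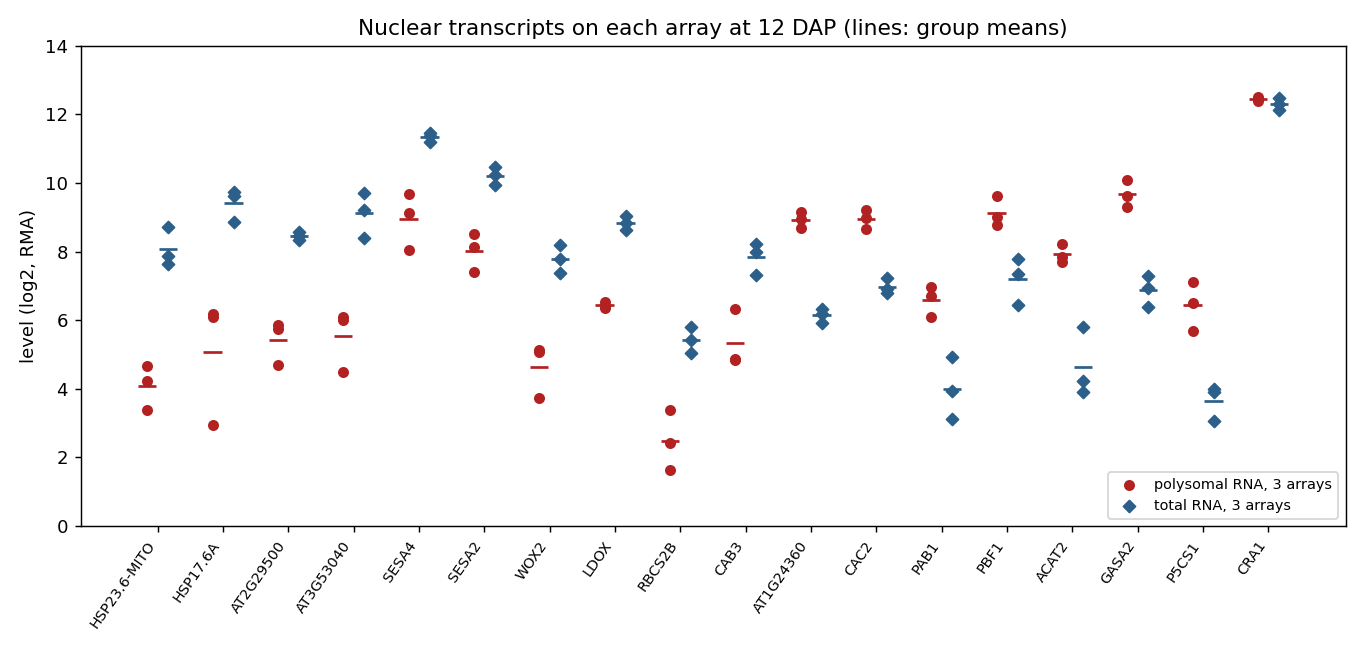
Levels (log2, vertical axis) of 18 nuclear transcripts on the 3 polysomal (red circles) and the 3 total RNA arrays (blue diamonds), with lines at the group means. Small heat shock genes, 2S albumins and WOX2 lie lower on polysomal arrays, the fatty acid, proteasome, ACAT2, GASA2 and P5CS1 transcripts higher, and CRA1 stands at 12.41 to 12.51 in polysomal and 12.12 to 12.47 in total RNA.

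Of 30 genes for subunits of the proteasome, the protease that degrades tagged proteins, 4 were higher (13.3%, against 0.906% of all loci) and 1 lower (3.33%, against 4.75%). A total of 25 lay above 0, and the median was 0.634. On quantile normalized values 6 were higher and 0 lower, with a median of 0.992. PAB1, here the core particle subunit AT1G16470, stood at 6.95, 6.71 and 6.08 in polysomal RNA and at 3.12, 4.92 and 3.94 in total RNA (2.59 ± 0.54, adjusted p = 0.00777). RPT6A, an ATPase of the regulatory particle, stood at 7.49, 7.12 and 8.70 in polysomal RNA and at 5.61, 5.70 and 6.03 in total RNA (1.99 ± 0.52, adjusted p = 0.0311). The core subunits PBF1 (1.95 ± 0.51) and PBC2 (1.75 ± 0.48) were also higher, and PAD2, of the same core, was lower (-1.77 ± 0.48), a call lost on quantile normalized values (-1.39). PAB1 remained called without each array in turn. The other 4 calls ended without any one of 5 or 6 of the arrays, so the higher count was between 1 and 3 with 5 arrays.

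The translation machinery itself gave few calls as deposited. Of 92 genes for proteins of the small cytosolic ribosomal subunit 1 was higher and 3 were lower, and of 130 for the large subunit 0 were higher and 1 was lower, with medians of 0.165 and 0.0616. Those shares lie near or below the background of 0.906% and 4.75%. On quantile normalized values 3 of the 92 and 5 of the 130 were higher, against 1.03% of all loci. The lower counts stayed at 3 and 1, and the medians were 0.418 and 0.355, against 0.114 for all loci. AT2G09990 stood at 3.86, 2.47 and 3.30 in polysomal RNA and at 6.30, 6.29 and 5.99 in total RNA (-2.98 ± 0.50, adjusted p = 0.00144). PGY2, a protein of the large subunit, stood at 5.38, 3.80 and 5.16 in polysomal RNA and at 7.57, 7.10 and 7.45 in total RNA (-2.59 ± 0.52, adjusted p = 0.00626). Both groups lay apart for each, and both calls remained on quantile normalized values. The small subunit gene rps15ae was lower too (-2.07 ± 0.49), though the call ended without any one of 4 arrays (-1.91 to -1.99). AT1G74270 (-1.75 ± 0.53) and RP1, which encodes RPL3A of the large subunit (0.84 ± 0.46), did not pass.

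None of 26 initiation factor genes and none of 24 genes for elongation and release factors with poly(A)-binding proteins passed in limma, with 0 of each called at an adjusted p under 0.05. The medians were 0.135 and 0.456, and 0.265 and 0.744 on quantile normalized values. There 2 of the 26 and 1 of the 24 were higher. EIF3K and EIF3E, subunits of the factor that brings the small subunit to the messenger, came closest at 1.53 ± 0.47 (adjusted p = 0.0712) and 1.42 ± 0.47 (adjusted p = 0.0927). EIF3K and EIF3E were higher on quantile normalized values (adjusted p = 0.0416 and 0.0456). PAB8 and PAB4, which bind poly(A) tails, differed by 1.5 ± 0.48 and 1.46 ± 0.50, and PAB2, of the same family, by 0.39 ± 0.50.

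Some messengers carry short upstream open reading frames (uORFs) in their leader that code for conserved peptides and hold back ribosomes. Of 20 such genes 1 was lower (5%, near the 4.75% of all loci) and 0 were higher. Their median was -0.112, and 0.104 on quantile normalized values. The one call was bZIP44, a transcription factor of the sucrose-sensing group, at 4.77, 4.94 and 4.29 in polysomal RNA and 7.32, 7.29 and 5.65 in total RNA (-2.09 ± 0.54, adjusted p = 0.0303). The bZIP44 call ended on quantile normalized values (adjusted p = 0.0708) and without any one of 5 arrays (-1.80 to -2.22). Its relative GBF6 (BZIP11) did not pass (-0.58 ± 0.49), nor did SAC51 (0.38 ± 0.46), SAMDC (-0.17 ± 0.46, and 0.21 on quantile normalized values) or HSF4, also called HSFB1 (-0.25 ± 0.50, and 0.08). AT1G73600 differed by 0.92 ± 0.51. In 11 of the 20 the probe set had the same values as a separate locus, so the signal of gene and partner cannot be told apart.

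Regulators of seed maturation were not called. Of 13 transcription factors 0 passed and the median was 0.0035. FUS3, which drives the maturation program, stood at 6.37, 6.82 and 5.55 in polysomal RNA and at 5.78, 6.26 and 6.70 in total RNA, a difference of 0.00 ± 0.51. ABI3 (0.24 ± 0.52), LEC1 (0.24 ± 0.50) and WRI1 (0.13 ± 0.52) had overlapping groups as well. ABI5, which answers abscisic acid, stood at 5.77, 6.59 and 6.02 in polysomal RNA and at 8.01, 7.86 and 7.45 in total RNA, and missed the threshold at -1.64 ± 0.48 (adjusted p = 0.0542). LEC2, a further master regulator, differed by -1.18 ± 0.54. With SEs of about 0.5 and the smallest called difference at 1.62, a change of 2-fold was not detectable in these genes.

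Of 27 genes for abscisic acid, gibberellin and dormancy 1 was lower (3.7%, near the 4.75% of all loci) and 0 were higher. NCED5, a rate-setting enzyme of abscisic acid synthesis, stood at 2.95, 3.17 and 3.08 in polysomal RNA and at 5.12, 4.38 and 4.86 in total RNA (-1.72 ± 0.47, adjusted p = 0.04). Its groups lay apart, and without any one array the call ended (-1.55 to -1.93). GA3OX2, which makes active gibberellin, differed by -1.93 ± 0.69 (adjusted p = 0.119) and DOG1, a controller of seed dormancy, by 0.92 ± 0.53 (adjusted p = 0.339). Of 33 LEA (late embryogenesis abundant) genes, thought to protect drying cells, 2 were lower (6.06%, near the 4.75% of all loci) and 0 higher, with a median of -0.385. AT3G53040 stood at 4.50, 6.10 and 5.99 in polysomal RNA and at 9.72, 9.22 and 8.40 in total RNA (-3.58 ± 0.56, 12.0-fold, adjusted p = 0.000708), and AT2G18340 was lower by a smaller step (-2.04 ± 0.50), a call lost without any one of 4 arrays (-1.83 to -2.07).

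Genes of growth and of single seed tissues gave few calls. Of 28 cell cycle genes 0 passed, with CDKB2;2 and CYCA2;1, which drive cell division, at 1.89 ± 0.62 and 1.54 ± 0.52. Of 31 histone genes 2 were lower (6.45%, near the 4.75% of all loci), HIS4 (-2.53 ± 0.66) and HTB2 (-2.0 ± 0.56), and both calls ended without any one of 5 arrays (-1.41 to -2.63). Of 8 embryo markers, WOX2, a regulator of early embryo patterning, was lower, at 3.74, 5.13 and 5.06 in polysomal RNA and 7.78, 8.20 and 7.37 in total RNA (-3.14 ± 0.52, adjusted p = 0.00131). PDF1, a gene of the epidermal layer, was higher, at 9.31, 9.48 and 9.41 in polysomal RNA and 8.23, 7.35 and 7.32 in total RNA (1.77 ± 0.48, adjusted p = 0.0392), a call lost without any one of 5 arrays (1.61 to 1.81). For both genes the polysomal values lay apart from the total values, as at 25.8% of all loci. Of the 8 embryo markers 7 lay above 0, WOX2 being the exception, and the median was 0.218.

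Of 15 flavonoid markers of the seed coat 2 were lower (13.3%, against 4.75% of all loci) and 0 higher, with a median of -0.545. LDOX, a late enzyme of flavonoid synthesis, stood at 6.34, 6.41 and 6.54 in polysomal RNA and at 9.03, 8.83 and 8.63 in total RNA (-2.40 ± 0.46, adjusted p = 0.00433), and DFR, the enzyme before it, differed by -2.14 ± 0.49 (adjusted p = 0.0141). DFR was not called on quantile normalized values (-1.78) or without polysomal replicate 1, polysomal replicate 2 or total replicate 1 (-1.85 to -2.08). Of 12 mucilage markers 0 passed (median -0.617), with MYB61 at -2.03 ± 0.65 and ARA12 at -1.42 ± 0.50. The endosperm genes PHE1 and RGE1 stood at -1.74 ± 0.57 and 1.10 ± 0.55 and the valve genes SHP2 and SPT at -1.90 ± 0.63 and 1.44 ± 0.55, none past the threshold. The array medians of the flavonoid list were 5.16 to 5.61 in polysomal RNA and 5.41 to 5.81 in total RNA, and those of the mucilage list 5.72 to 6.21 and 6.07 to 6.19, so overall levels of coat markers overlapped between the fractions, and their part in other results was not tested.

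**Figure D4:**
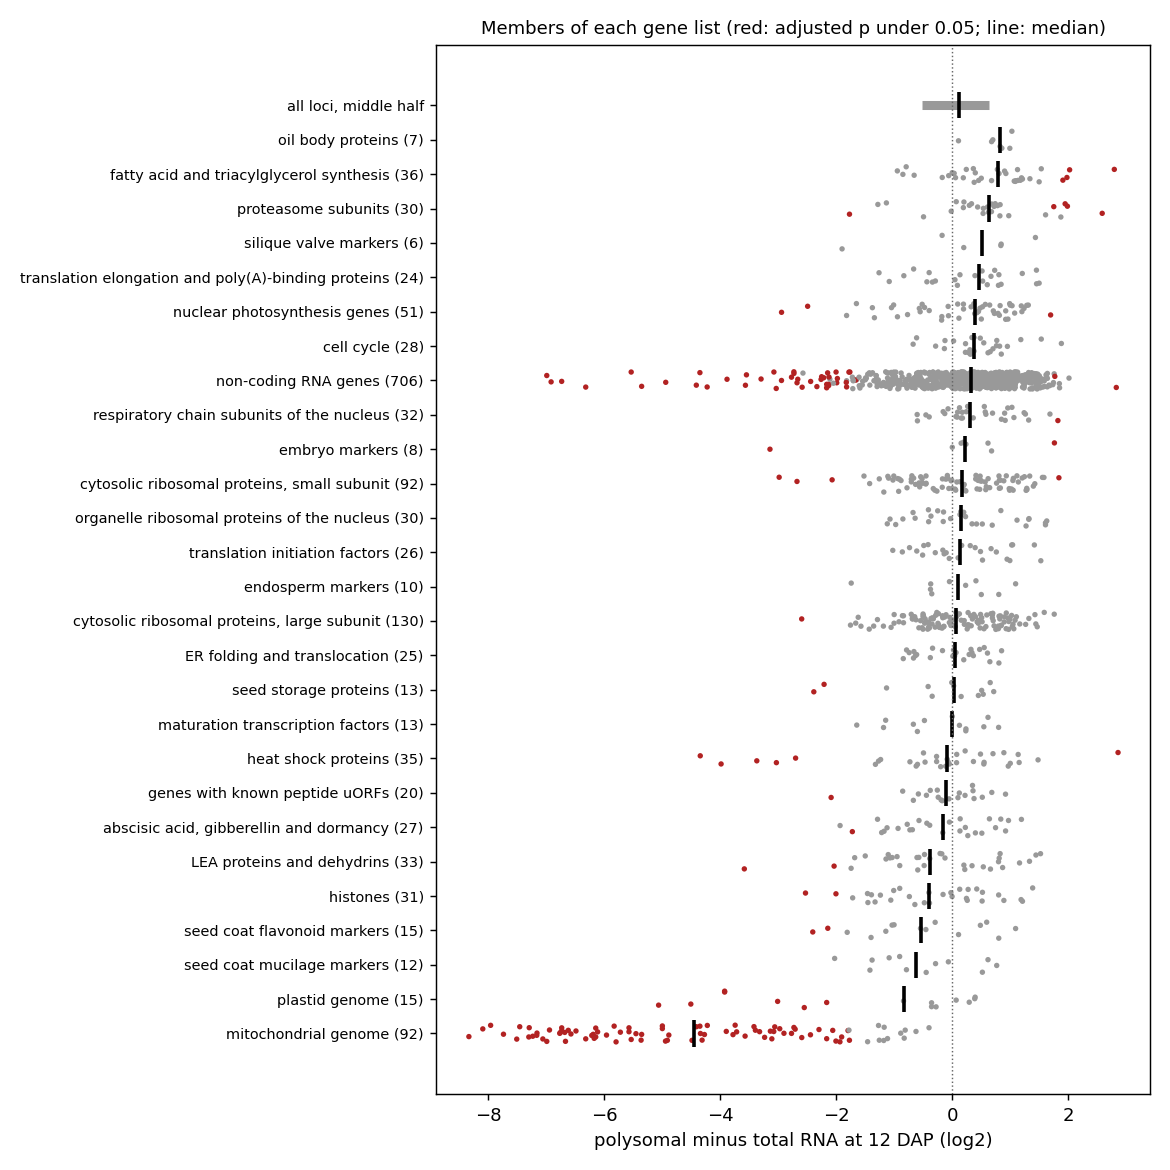
Difference between polysomal and total RNA (log2, horizontal axis) for every member of each gene list (rows, number of members in brackets), in red where the adjusted p was under 0.05, with the list median as a black line and the quartile range of all loci in the top row. List medians run from -4.45 for the mitochondrial genome to 0.827 for oil body proteins.

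Transcripts that are not translated gave another view of the fractions. Of 706 non-coding RNA genes 42 were lower (5.95%, near the 4.75% of all loci) and 2 higher (0.283%, below the 0.906% of all loci). A difference above 0 was found for 447 of the 706, and the median was 0.319, against 0.114 for all loci. Their signal was dim, with array medians of 3.85 to 3.94 in polysomal and 3.55 to 3.71 in total RNA. Transfer RNA genes made up 15 of the 42, from 61 on the array (24.6% of these, against 4.75% of all loci). As a class they were split, with 29 of the 61 above 0, 32 below and a median of -0.124. In 9 of the 61 every value was shared with another locus. AT2G07746 stood at 4.21, 5.57 and 5.53 in polysomal RNA and at 12.33, 12.09 and 11.64 in total RNA (-6.92 ± 0.52), and AT2G07762 at 4.22, 5.20 and 6.20 in polysomal RNA and at 11.38, 11.57 and 11.63 in total RNA (-6.32 ± 0.54). Both lie among the loci of the mitochondrial insertion on chromosome 2, and AT2G07762 shares its values with another locus. How many others of the 15 lie there was not counted. The transfer RNA AT1G56940 was higher (2.83 ± 0.70), a call lost without any one of 4 arrays (2.05 to 3.0).

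Small nuclear RNAs of the spliceosome, which act in the nucleus, were represented by 13 genes. U12 stood at 6.40, 6.36 and 6.79 in polysomal RNA and at 9.19, 8.51 and 8.50 in total RNA (-2.21 ± 0.47, adjusted p = 0.00959), and U6acat differed by -1.82 ± 0.51. They were the 2 called (15.4%, against 4.75% of all loci), and the second was lost without any one array (-1.44 to -2.02). On quantile normalized values 1 of the 13 was lower. The class as a whole did not lean downward, since 9 of the 13 lay above 0. Its median was 0.566 (0.375 on quantile normalized values), against 0.114 for all loci. Of 222 long non-coding RNAs 13 were lower (5.86%, near the 4.75% of all loci), led by AT3G22072 (-2.73 ± 0.50) and AT2G42247 (-2.68 ± 0.50). Among 165 other non-coding RNAs 9 were lower (5.45%, also near it), with AT1G64618 at 3.74, 3.79 and 3.09 in polysomal RNA and 8.07, 7.62 and 7.61 in total RNA (-4.23 ± 0.47), and AT5G33399 at -3.55 ± 0.48. Of 174 miRNA genes 153 lay above 0, with a median of 0.696, and 0 were called higher. Their signal was dim, with array medians of 3.27 to 3.51 in polysomal and 2.53 to 2.73 in total RNA. The dimmest bin of all loci had a median of 0.466 (0.192 on quantile normalized values). The miRNA median was 0.495 on quantile normalized values. Its later values, as deposited, were 0.0651, -0.0216 and -0.0632 at 15, 18 and 20 DAP. A pair (2 of 174, 1.15%) were lower, MIR841a (-2.73 ± 0.64) and MIR835 (-1.99 ± 0.52), and both calls ended on quantile normalized values. Of 68 small nucleolar RNAs 1 was lower (1.47%, below the 4.75% of all loci), AT5G66564 (-3.57 ± 0.81). Its groups overlapped, and the call was lost without any one of 4 arrays. AT3G13525 was higher (1.77 ± 0.47), a call lost without any one of the 6 arrays.

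Few of the most depleted transcripts had a gene symbol in the table used. Of the 100 largest falls 40 were mitochondrial loci, which that table does not name, and 17 others shared every value with another locus. A symbol was given for 2 of the 100, against 37.9% of all loci, and the 40 unnamed loci lower that share. Of the 100 largest rises 39 had a symbol. The named genes with the largest falls, listed after their values were seen, began with ABCI4, whose ID adjoins those of the chromosome 2 pseudogenes above (-6.28 ± 0.60). PUM18, of the Pumilio family of RNA-binding proteins, stood at 2.16, 3.50 and 2.10 in polysomal RNA and at 8.88, 8.64 and 7.87 in total RNA (-5.88 ± 0.53, adjusted p = 1.8e-06). EXT10, an extensin of the cell wall, stood at 2.56, 2.61 and 3.32 in polysomal RNA and at 6.85, 8.43 and 8.04 in total RNA (-4.95 ± 0.53). The polysomal values of both lay below the array median, far from the total values. The F-box protein gene VFB3 (-4.56 ± 0.50), the ammonium transporter gene AMT1;4 (-4.51 ± 0.50) and GRP17, a glycine-rich protein of the pollen coat (-4.39 ± 0.56), followed.

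Short genes were called lower more often. Among protein-coding genes the share called lower was 7.06% in the shortest of 5 bins by gene length (up to 1202 bases), 5.68%, 4.80% and 2.96% in the next bins and 0.944% in the longest (over 3348 bases). The share called higher was 1.26% in the shortest and 0.774% in the longest bin. The median difference was 0.177 in the shortest and 0.222 in the longest bin, and 0.0685 and 0.264 on quantile normalized values. At 15 DAP these medians were -0.169 and 0.386. Length was not separated from level, with which the share called lower also varied. Gene length here runs over introns and is not the length of the transcript.

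The largest rises were smaller than the largest falls. ACAT2, an acetoacetyl-CoA thiolase that opens the sterol pathway, stood at 7.69, 8.22 and 7.86 in polysomal RNA and at 5.79, 3.91 and 4.24 in total RNA (3.28 ± 0.54, 9.71-fold, adjusted p = 0.00131). GASA2, a small secreted peptide of a gibberellin-regulated family, stood at 10.09, 9.31 and 9.61 in polysomal RNA and at 7.30, 6.93 and 6.38 in total RNA (2.80 ± 0.49, adjusted p = 0.00198). P5CS1, the rate-limiting enzyme of proline synthesis, stood at 5.69, 7.10 and 6.49 in polysomal RNA and at 3.89, 4.0 and 3.05 in total RNA (2.78 ± 0.52, adjusted p = 0.00361). Each was higher on all 3 polysomal arrays than on any total array, and each call remained without any one array and on quantile normalized values. OFP9, of the OVATE family of growth repressors, differed by 3.06 ± 0.52 and WLIM1, an actin-bundling protein, by 2.68 ± 0.54. AT3G16895 (3.24 ± 0.63) and AT2G13640 (2.77 ± 0.53) also remained called without each array, and AT3G28925 (2.78 ± 0.63) did not pass without polysomal replicate 1 (2.67), polysomal replicate 2 (2.28) or total replicate 3 (2.22).

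The pattern at 12 DAP was set against the same ratio at later stages. The loci called lower at 12 DAP had a median difference of -2.47 there, and of -1.13, -0.832 and -0.613 at 15, 18 and 20 DAP. Of these loci 71.8% lay below 0 at all 3 later stages, against 30.7% of all loci. The loci called higher had a median of 1.93 at 12 DAP and of 0.18, 0.144 and 0.0628 later, and 41.7% of them lay above 0 at all 3 later stages, against 37.5% of all loci. The calls themselves chose these loci, so their 12 DAP medians are a description. Across loci, the 12 DAP differences correlated with the later ones at 0.449, 0.376 and 0.335, over 27827 loci on arrays whose noise differed.

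The change of the ratio was tested over all 24 arrays, as the ratio at 12 DAP minus the mean of the later ratios. It was called at 1081 loci (3.88%), of which 848 (3.05%) had a lower ratio at 12 DAP and 233 (0.837%) a higher one. This test weights the noisy 12 DAP arrays at 0.249 and 0.290, against 0.919 to 2.73 for later groups. With a separate spread for the 12 DAP and the later arrays, an alternative chosen after seeing the data, 1138 loci were called, 748 of them shared. On quantile normalized values 588 were called, and without total replicate 2, polysomal replicate 1 or polysomal replicate 3 of 12 DAP 635, 682 and 707.

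Of the 92 mitochondrial loci 69 had a lower ratio at 12 DAP than later, against 3.05% of all loci, and 0 a higher one. Every value was shared with another locus at 37 of the 92. The median difference of the 92 was -4.45 at 12 DAP and -1.57, -0.918 and -0.718 at 15, 18 and 20 DAP. ATMG01240 stood at 0.85, 1.52 and 3.03 in polysomal RNA and at 8.21, 8.73 and 8.48 in total RNA at 12 DAP, while its later differences were -1.7, -0.35 and 0.02 (change -5.99 ± 0.94, adjusted p = 0.000393). The depleted plastid locus ATCG00250 was as low later, at -3.95, -3.88 and -3.92, and its change did not pass (-0.59, adjusted p = 0.67). The nuclear genes EXT10 (later -5.19, -5.57 and -4.26) and GRP17 (later -3.45, -3.43 and -3.30) were likewise low at every stage, and the change of neither passed (adjusted p = 0.984 and 0.5). AT4G18690 (change -5.40), AT5G27889 (-5.41) and AT2G07798 (-5.64) had the largest changes downward beside ATMG01240 and ATMG00450 (-5.45) among loci called in both tests.

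The small heat shock genes lay nearer to 0 at the later stages. HSP23.6-MITO had later differences of 0.22, 0.04 and 0.14 (change -4.12 ± 0.42, adjusted p = 2.61e-06), and HSP17.6A of -0.45, -0.86 and -0.84 (change -3.63, adjusted p = 0.000415). For all 5 heat shock genes called lower the change passed as well. These genes and the rises below were chosen by 12 DAP values that also enter this test, so its results here are not separate support. Among rises, P5CS1 had later differences of -0.42, -0.32 and -0.19 (change 3.09 ± 0.49, adjusted p = 0.000444) and GASA2 of -0.11, -0.31 and -0.24 (change 3.02 ± 0.36, adjusted p = 1.73e-05). AT5G01140 (3.61), AT3G16895 (3.53), WLIM1 (3.23) and AT3G13686 (3.13) had similar upward changes. AT1G24360 stayed above 0 later, at 1.51, 1.21 and 0.85, and its change did not pass (1.61 ± 0.69, adjusted p = 0.202). In the fatty acid list 3 of 36 had a higher ratio at 12 DAP than later and 0 a lower one. In the proteasome list these were 2 and 2 of 30, and over all loci 0.837% and 3.05%.

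**Figure D5:**
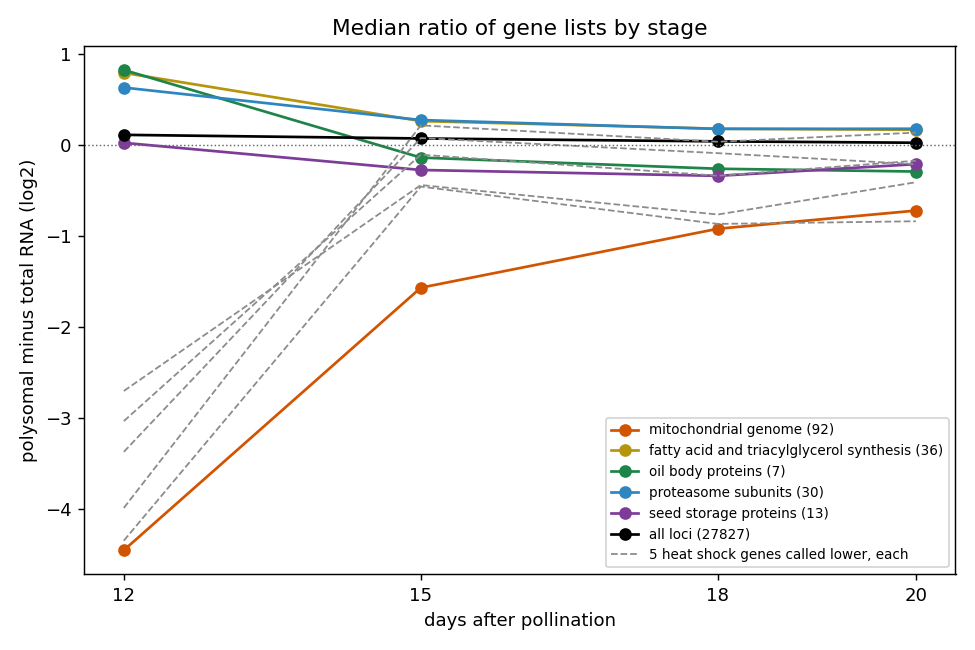
Median difference between polysomal and total RNA (log2, vertical axis) of 5 gene lists and of all loci at 12, 15, 18 and 20 days after pollination (horizontal axis), with the 5 heat shock genes called lower at 12 DAP as dashed grey lines. The mitochondrial median climbs from -4.45 at 12 DAP to -0.718 at 20 DAP, and that of all loci stays between 0.0276 and 0.114.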

How the data were processed

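The deposited values are log2 expression levels, 1 row for each locus, from RMA per the submitters' processing notes, with no version given; biotin-labelled cRNA was made with a one-cycle kit for the 3′ end, per the labels' protocols. RMA levels the arrays against each other, so a broad shift in one fraction would be reduced. All 27827 loci were tested, with no filter. The 6 arrays of 12 DAP were fitted alone in limma 3.58.1 (R 4.3.3), without a replicate term and with 4 residual degrees of freedom, and p was adjusted after Benjamini and Hochberg (threshold 0.05). The change of the ratio used all 24 arrays with array weights per group. Arrays give no depth, and 3 per group limit the precision. Replicates were separate bulks of plants, per the labels. Same-numbered polysomal and total arrays did not deviate together (correlations -0.00863, 0.0111 and 0.00238). On arrays this noisy that cannot decide whether a number ties arrays to the same bulk, which the labels do not say.

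Names, gene classes and lengths come from a RefSeq table of TAIR10.1, which held 27241 loci. Members and lists were chosen with earlier results of these data known. The text names the 10 largest non-overlapping rises and falls, the 2 smallest p of each list, 16 chosen genes and the 5 largest ratio changes each way; others are marked or are called list members. A gene that this rule names is not reported here. The tests were checked on simulated data. Alternatives were other scalings, a filter on dim loci, other spreads, a replicate block and leaving out each array.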

Additional observations from a re-analysis of the deposited data

Results flagged for a closer look

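The ratio of polysomal to total RNA at 12 DAP differed from the mean of the later ratios at 1081 loci, by a limma test of the difference itself over 24 arrays. The same test passed for 48 of the loci that the naming rule picked or that were listed by symbol. They were picked largely by their 12 DAP values, which also enter this test, so passing is not separate support. Further list members named above, such as HSP17.6A, are not among the 48. Values are log2 changes, 12 DAP minus the mean of 15, 18 and 20 DAP. Groups of 3 arrays are too small for a search for single outlying arrays.

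Among mitochondrial loci the changes were -5.99 for ATMG01240, -5.45 for ATMG00450, -4.88 for ATMG00880, -4.83 for ATMG00320, -4.46 for ATMG01250, -4.0 for ATMG00860, -3.80 for ATMG00740, -3.68 for ATMG00820 and -3.58 for ATMG00840. The chromosome 2 loci with IDs near the mitochondrial insertion followed, at -5.64 for AT2G07798, -4.23 for AT2G07683, -4.09 for AT2G07746, -4.04 for AT2G07762, -3.77 for AT2G07682 and -2.90 for ABCI4. The plastid locus ATCG00990 changed by -1.97.

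Nuclear transcripts with a lower ratio at 12 DAP than later were AT5G27889 (-5.41), AT4G18690 (-5.40), VFB3 (-4.05), HSP23.6-MITO (-4.12), AT2G29500 (-2.83), AT3G53040 (-3.09), WOX2 (-2.84), RBCS2B (-2.71), NCED5 (-2.71), bZIP44 (-2.42), SESA4 (-2.09), SESA2 (-1.67), HTB2 (-1.87) and ABI5 (-1.48). The ribosomal protein genes AT2G09990 (-2.68), PGY2 (-2.22) and AT1G74270 (-2.34) and the non-coding AT3G22072 (-2.16) and MIR835 (-1.94) did so too.

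Those with a higher ratio were AT5G01140 (3.61), AT3G16895 (3.53), WLIM1 (3.23), AT3G13686 (3.13), P5CS1 (3.09), GASA2 (3.02), AT2G13640 (3.0), ACAT2 (2.89), AT5G37670 (2.88), PAB1 (2.26), PDF1 (1.79), MPPBETA (1.65) and CAC2 (1.44). With separate spreads for the 12 DAP and the later arrays 43 of the 48 remained called, and SESA2, CAC2, ABI5, HTB2 and MPPBETA did not.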

How the results depend on the processing

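For polysomal against total RNA at 12 DAP, as deposited 16% of the 1573 calls were higher; quantile normalization gave 1261 calls (22.8% higher), median centring 1551, cyclic loess 1230 and leaving out the dimmest 25% of loci 1596. A spread shared by all 24 arrays gave 8750 calls, 4463 higher and 4287 lower (51.0% higher), and an intensity trend gave 392 higher calls. Leaving out single arrays gave 907 to 1280 calls, 65 to 150 higher and 842 to 1138 lower. Same-numbered polysomal and total arrays did not deviate together, and a replicate block gave 1548 calls, 1442 of them shared. For the change of the ratio (1081 calls, 233 higher and 848 lower), quantile normalization gave 588 calls with 407 lower, cyclic loess 647 with 443 lower, and fits without array weights 6900 with 3451 higher and 3449 lower. Higher calls numbered 151 without the dimmest 25%, 126 with the replicate block and 402 with separate spreads, the alternative chosen after seeing the data. Leaving out single arrays gave 635 to 1086 calls, 89 to 247 higher and 546 to 842 lower.

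Among 109 named differences recomputed under the alternatives (105 without the dimmest 25%), those that turned sign had not passed. CRA1 was -0.19 under cyclic loess, SAMDC 0.21 on quantile normalized values, and HSF4 0.078 on quantile normalized values and 0.0936 under cyclic loess. Without single arrays, ABI3 ranged from -0.22 to 0.67, FUS3 from -0.28 to 0.35, LEC1 from -0.0443 to 0.59, WRI1 from -0.35 to 0.43 and HSF4 from -0.59 to 0.0936. No other sign turned among the 109. Outside them, uncalled loci that turned on quantile normalized values were the 4 mitochondrial loci given above, SESA3 (0.35) and SESA1 (0.50). The causes were not tested. The 3 arrays per group and their spread at 12 DAP limit what could be called, and loci near background have no order.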
